A study of Rattus norvegicus with 84 samples.

Results

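Endothelial cells line the vessels of the brain, and pericytes wrap around its capillaries. A set of 10 marker genes of these cells (the members) was followed in extracellular vesicles (EVs) of the rat brain and of plasma: 8 endothelial genes (Cldn5, Pecam1, Flt1, Kdr, Cdh5, Vwf, Slc2a1 and Abcb1a) and 2 pericyte genes (Pdgfrb and Rgs5). Their rows were taken by gene symbol from 18782 annotated genes in the mRNA count table, and all 10 were found there. Long RNA libraries were made from EVs of the ipsilateral hemisphere and of plasma in 7 groups of 3 biological replicates, which gave 21 brain and 21 plasma libraries. The stroke rats were adult male Sprague-Dawley animals, labelled WT and aged 8 to 12 weeks, whose right middle cerebral artery was occluded for 90 min. On day 3 poststroke, 200000 human neural stem cells (hNSCs) or saline was injected through the carotid artery. Control rats (saline) and hNSC-treated rats were sampled 4, 10 and 31 days poststroke, and the remaining group was rats labelled healthy and WT, with no time point. EVs pool the output of many cells, so that more vessel cells, more EVs per cell and more RNA per EV cannot be told apart in any value below.

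The members cover the main tasks of the vessel wall. Claudin-5 (Cldn5) seals the tight junctions of the blood-brain barrier, VE-cadherin (Cdh5) builds the adherens junctions beneath them, and PECAM-1 (Pecam1) joins endothelial cells at their borders and is also carried by platelets and leukocytes. Flt1 and Kdr encode the receptors for vascular endothelial growth factor that restrain and drive vessel growth, whereas von Willebrand factor (Vwf), made by endothelial cells and megakaryocytes, tethers platelets to an injured wall. The glucose transporter GLUT1 (Slc2a1) and the efflux pump P-glycoprotein (Abcb1a) carry out the transport work of the barrier, while PDGF receptor beta (Pdgfrb) recruits and holds pericytes and Rgs5 dampens G protein signalling in them.

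Levels of the members in brain-derived EVs ranged widely among all genes, from Rgs5, above 83.1% of the annotated genes, to Kdr, above 35.1%. In FPKM (fragments scaled by transcript length and mapped reads, the only scale here on which genes can be compared with each other), the mean over 21 brain libraries was highest for Rgs5 at 1.34 and Slc2a1 at 0.951, followed by Pdgfrb at 0.762 and Vwf at 0.695. The lowest means were those of Cdh5 at 0.202 and Kdr at 0.118, which placed Rgs5 at rank 3181 and Kdr at rank 12196 of 18782 genes. Plasma-derived EVs had another order, led by Pecam1 at 11.7 FPKM, Vwf at 10.9 and Rgs5 at 5.21, with Slc2a1 at 0.540 and Abcb1a at 0.252 at the bottom. The pooled order in the brain hid differences between groups. Healthy brains were led by Flt1 at 0.386 FPKM, ahead of Rgs5 at 0.297, Cldn5 at 0.245, Pdgfrb at 0.224 and Slc2a1 at 0.215. The Rgs5 mean came from replicate 2 alone, at 0, 0.890 and 0 FPKM in replicates 1 to 3. Day 4 controls were led by Vwf at 1.57 FPKM. Day 31 libraries had the highest group means of Rgs5 (2.72 in controls and 3.10 with hNSCs) and of Slc2a1 (1.97 and 2.40) on this scale. In counts scaled to the library's total (CPM), the highest group mean of both was that of day 10 controls (19.1 for Rgs5 and 54.8 for Slc2a1). In healthy plasma, Pecam1 at 9.31 and Vwf at 9.26 FPKM led as in the pooled order. Of the 210 member values in each tissue, 25 were 0 in the brain and 39 were 0 in plasma. Only 9 of 21 brain libraries and 4 of 21 plasma libraries held reads of every member.

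Depth differed widely. Brain libraries held 13221461 to 37651652 counts, but only 3.18 to 51.9% of these fell on annotated genes, against 45.1 to 75.6% of 11878367 to 49824782 counts in plasma. This annotated share was 29.9 to 51.9% in the day 31 brain libraries and at most 25.3% in all other brain libraries. FPKM is scaled to mapped reads, and the part of this share in FPKM differences between groups was not tested. Healthy replicate 1, control day 10 replicate 3 and hNSC day 10 replicates 2 and 3 of the brain had under 1600000 annotated counts (4 shallow libraries), and the last of these, with 569136, had 7 of 10 members at 0. The tissue labels held on their defining markers: 7 neuronal genes summed to 4576 to 5533 CPM in healthy brain libraries and to 0.255 to 5.58 CPM in healthy plasma libraries. The libraries carried no molecular identifiers, so that reads can be copies of 1 molecule, and a count of 0 allows for up to 3 counts by counting error alone. Fold bounds below use this floor of 3 counts and do not cover the spread between replicates. That spread could be wide: in plasma, Slc2a1 had 0, 282 and 0 reads in day 10 controls.

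The first question was whether stroke alters these transcripts in brain-derived EVs. On day 4 poststroke, 4 of 10 members (Vwf, Pdgfrb, Slc2a1 and Pecam1) were higher in all control libraries than in any healthy library, where 13.9% of all genes tested were above without overlap, and none was below, where 10.4% of all genes were. Fold changes were tested with the edgeR quasi-likelihood test on counts of annotated genes, with libraries scaled by trimmed means (TMM). A call needed more than a 1.5-fold difference at an adjusted p below 0.05. By that rule 0 of 10 members passed on day 4, against 0.861% of 14515 genes. At an unadjusted p under 0.05 there were 2 members (Vwf and Pdgfrb), DESeq2 called 1 (Pdgfrb, adjusted p = 0.0442, with 5.83% of all genes called), and limma on log2(FPKM + 1) called 2 (Vwf and Pdgfrb) of the 4 members it could test, with 7.84% of all genes called (6.89% at a pseudocount of 0.1, for the same 2 members). Without the 4 shallow libraries 0 members were called (0.306% of all genes).

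Vwf made the widest step of the endothelial members. In the brain its level was 28.0, 68.0 and 98.2 CPM in healthy replicates 1 to 3, and 361.8, 297.2 and 183.4 CPM in control replicates on day 4. The lowest stroke library lay above the highest healthy one. The log2 difference was 2.11 (SE 0.76), with an adjusted p of 0.176 in edgeR, so the step did not pass the test when all 7 groups shared 1 estimate of the spread. When only the healthy and day 4 libraries were fitted, Vwf passed with an adjusted p of 0.0219, and 4.3% of all genes were called in that fit. Pdgfrb, the pericyte receptor, gave the smallest adjusted p of the 10. Its healthy levels were 23.0, 45.2 and 68.7 CPM against 143.5, 168.8 and 108.9 CPM on day 4. These groups did not overlap, and the log2 difference of 1.61 (SE 0.53) had an adjusted p of 0.140 in edgeR and of 0.0474 when only both groups were fitted.

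The 2 remaining members without overlap on day 4 were GLUT1 and PECAM-1. Slc2a1 was counted at 12.2, 27.9 and 19.1 CPM in healthy brains and at 68.0, 50.0 and 29.0 CPM in control brains on day 4. The margin between the highest healthy and the lowest stroke library was narrow, and the log2 difference of 1.30 (SE 0.66, edgeR adjusted p = 0.375) did not pass. Pecam1 rested on few reads, with 0, 6.87 and 4.22 CPM in healthy brains and 11.3, 11 and 21.2 CPM on day 4, a log2 difference of 1.93 (SE 1.46, adjusted p = 0.689). The growth factor receptors did not share this pattern. Flt1 stood at 48.9, 78.4 and 76.8 CPM in healthy brains and 75.5, 64.9 and 56.5 CPM on day 4, fully overlapping, and Kdr was listed at 0 in 2 of 3 day 4 libraries and at 21.9 CPM in the other. Over the 10 members the median log2 difference on day 4 was 1.19, against 0.05 over all genes tested, with 8 members higher and 2 lower. On the FPKM scale 6 members were above the healthy group, Flt1 and Abcb1a joining the other 4, where 27.6% of all genes were.

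Markers of other brain cells differed on the same day, and their part in these values was not tested. Summed over 11 microglia and macrophage genes, healthy libraries held 73.3 to 86.2 CPM, with Tyrobp and Cd14 at 0 in all of them, and control day 4 libraries held 547 to 1306 CPM with no marker at 0 throughout. All 11 were higher on day 4, and the complement genes C1qb and C1qc were the 2 called (log2 differences of 4.22 and 5.71). The astrocyte gene Gfap was called as well (2.25). Neuronal markers summed to 1934 to 3375 CPM on day 4, below the healthy range. Platelet markers were at 0 for all 8 genes in every healthy brain library and summed to at most 10.4 CPM on day 4. Red cell markers (7 genes) summed to 203 to 475 CPM in healthy brain libraries and to 84.5 to 197 CPM on day 4.

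**Figure D1:**
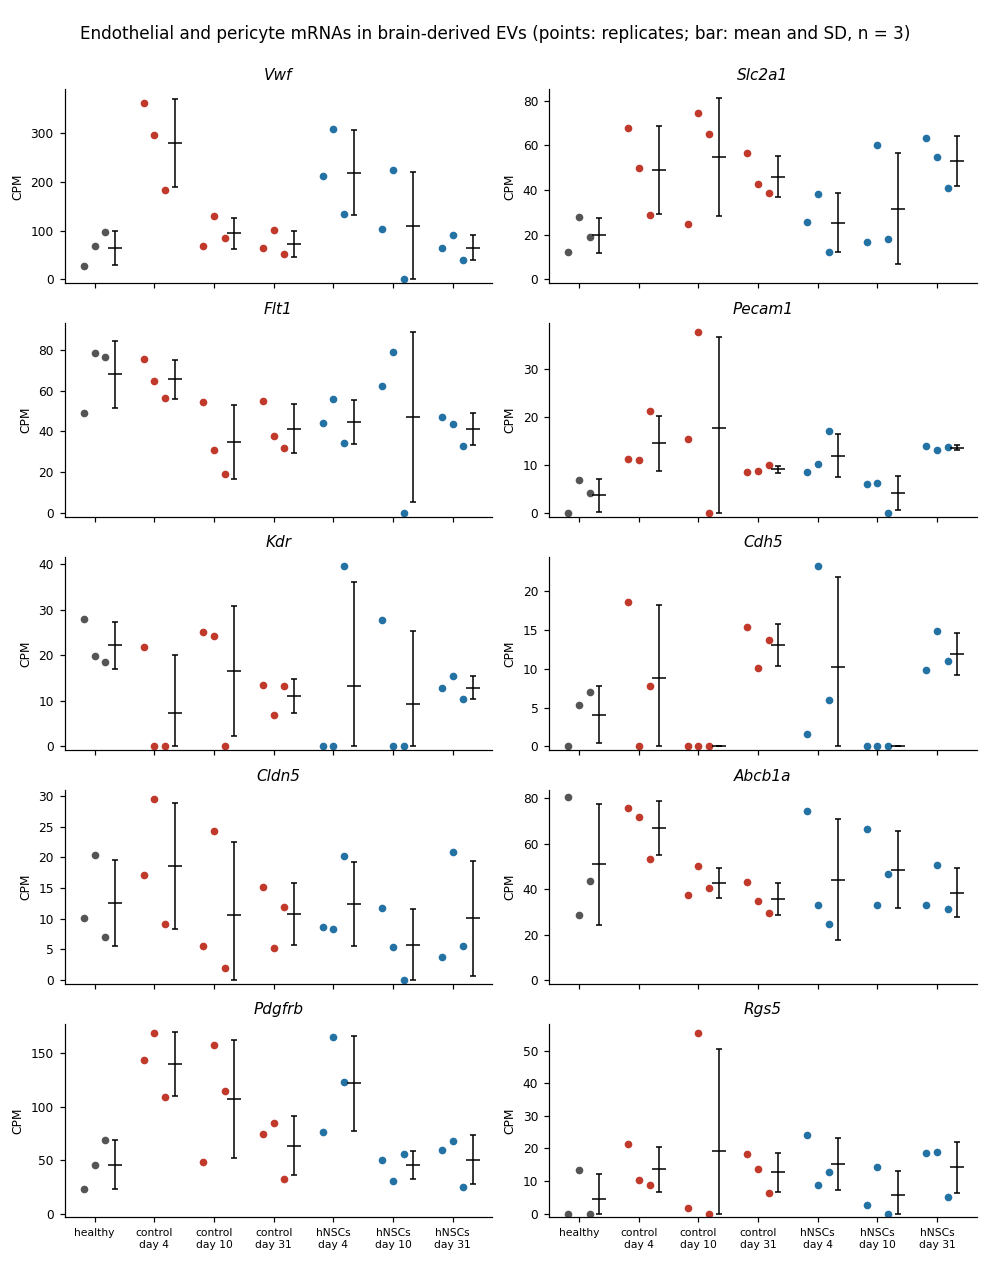
Level of each member in brain-derived EVs in CPM (vertical axis) for the healthy, control and hNSC groups (horizontal axis). Points are the 3 replicates of a group, and the bar beside them is the mean with its SD (the lower arm stops at 0). Control day 4 points lie above all healthy points for Vwf, Slc2a1, Pecam1 and Pdgfrb, and Cdh5 is at 0 in all libraries of day 10.

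On day 10 poststroke the control libraries were more scattered. No member was free of overlap with the healthy group in either direction, where 7.05% of all genes were above and 7.03% below. The edgeR quasi-likelihood test called 0 of 10 members (0.572% of all genes), with 3 at an unadjusted p under 0.05 (Cdh5, Slc2a1 and Pdgfrb). DESeq2 called 0 (4.22%), limma called 0 of the 4 it could test, and edgeR called 0 without the 4 shallow libraries (0.00637%). For VE-cadherin, no read of Cdh5 was counted in any control library on day 10, against 0, 5.32 and 7.03 CPM in healthy brains. With a floor of 3 counts over the group, its level was at least 8.23-fold lower than the healthy mean of 4.12 CPM. The same gene was at 0 in all hNSC libraries of day 10, and these groups include 3 of the 4 shallow libraries. Pdgfrb ranged from 48.2 to 158.1 CPM and Slc2a1 from 24.7 to 74.6 CPM, in both cases with replicate 1 down in the healthy range and the other replicates above it.

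By day 31, 3 members (Pecam1, Cdh5 and Slc2a1) were above the healthy group without overlap, where 18.9% of all genes were, and 1 (Kdr) was below, where 6.39% of all genes were. The edgeR quasi-likelihood test called 0 of 10 (0.00689% of all genes), with 0 at an unadjusted p under 0.05 and 0 by DESeq2 (1.21%). Limma on log2(FPKM + 1) called all 4 members it could test, Vwf, Slc2a1, Pdgfrb and Rgs5, as higher, but it called 94.3% of all genes there (90.9% at a pseudocount of 0.1), and on that scale the median of all genes was shifted by 1.05 log2 units. With only both groups fitted in edgeR, 0 members were called (0.0217% of all genes). Slc2a1 stayed at 56.5, 42.9 and 38.6 CPM, all above the healthy maximum of 27.9 CPM, with a log2 difference of 1.21 (SE 0.66, edgeR adjusted p = 0.832). Pecam1 was tightly grouped at 8.57, 8.71 and 9.94 CPM, a log2 difference of 1.25 (SE 1.43, adjusted p = 1). Kdr had the opposite order, with 28.0, 19.9 and 18.6 CPM in healthy brains and 13.4, 6.87 and 13.2 CPM, a log2 difference of -0.99 (SE 2.01, adjusted p = 1). The error of this difference was larger than the difference, and its direction turned on the FPKM scale, where all day 31 values of Kdr lay above the healthy ones. On FPKM 7 members were above and 0 below (84.2% and 0.0276% of all genes).

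Comparing days within the controls, 5 of 10 members (Pecam1, Flt1, Vwf, Abcb1a and Pdgfrb) were lower on day 31 than on day 4 without overlap, where 10.1% of all genes were, and 0 were higher, where 19.1% of all genes were. The edgeR test called 0 of 10 (0.248% of all genes), with 2 at an unadjusted p under 0.05 (Vwf and Pdgfrb), 0 by DESeq2 (1.68%) and 0 of 4 by limma (50.7%, or 7.47% at a pseudocount of 0.1). Vwf was at 64.0, 101.8 and 51.4 CPM on day 31, close to the healthy range and below every day 4 library. That difference was -1.96 on the log2 scale (SE 0.75, adjusted p = 0.30). It passed when only the 2 groups were fitted (adjusted p = 0.0391, with 6.34% of all genes called) and when the 4 shallow libraries were left out (adjusted p = 0.0474, with 0.388% of all genes called). The efflux pump gene Abcb1a, at 75.7, 71.8 and 53.5 CPM on day 4 and at 43.3, 34.6 and 29.5 CPM on day 31, differed by -0.90 (SE 0.54, adjusted p = 0.810). Pdgfrb stood at 74.5, 84.4 and 32.2 CPM on day 31. None of the 5 separations between day 4 and day 31 held on the FPKM scale, where the days overlapped for all 5 members (48.3% of all genes were above and 0.572% below). The FPKM means of Pecam1, Flt1 and Abcb1a were higher on day 31 than on day 4 (0.434 against 0.312, 0.771 against 0.705, and 0.688 against 0.567). The annotated share of counts was 30.3 to 43.0% in day 31 controls and 22.0 to 25.3% in day 4 controls. Its part in the FPKM values was not tested.

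Pooling the 3 days, which reuses the same healthy libraries, left 0 of 10 members called by edgeR (0.186% of all genes), 2 at an unadjusted p under 0.05 (Slc2a1 and Pdgfrb) and 0 by DESeq2 (4.79%), whereas limma called all 4 members it could test, with 25.5% of all genes called (17.3% at a pseudocount of 0.1). Without the 4 shallow libraries edgeR called 0 (0.00637% of all genes). No member was above the healthy group in all 9 control libraries (2.62% of all genes), or below it in all 9 (1.52%). The log2 difference was 1.32 for Slc2a1 (SE 0.58, edgeR adjusted p = 0.334) and 1.10 for Pdgfrb (SE 0.45, adjusted p = 0.292), and it was -0.58 for Flt1 (SE 0.59, adjusted p = 0.869). Ordered by mean CPM over the 7 brain groups, neighbouring groups overlapped in 6 of 6 steps for 9 members and in 5 of 6 for Pecam1. The order of neighbouring groups was thus mostly within the spread of replicates, although groups further apart could be separated, as for Vwf on day 4 and in healthy brains.

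Transplantation of hNSCs was compared with saline on the same day. In brain-derived EVs the edgeR quasi-likelihood test called 0 of 10 members on day 4, 0 on day 10, 0 on day 31 and 0 over all days, and in each case 0% of all 14515 genes. At an unadjusted p under 0.05 there was 1 member on day 10 (Pdgfrb) and 0 elsewhere. DESeq2 called 0 members throughout, with 1.52% of all genes called on day 4, 4.38% on day 10, 0% on day 31 and 2.36% over all days. Limma called 0 of the 4 members it could test, with at most 0.0128% of all genes called. Pdgfrb on day 10 was 50.1, 30.2 and 55.8 CPM with hNSCs and 48.2, 158.1 and 115.1 CPM with saline. These groups overlapped at replicate 1 of the controls, and the log2 difference of -1.24 (SE 0.53) had an adjusted p of 0.336.

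Groups without overlap were few under hNSCs, and there were 0 on day 10 (1.61% of all genes above and 7.06% below). On day 4 only Flt1 was lower, at 44.0, 56.0 and 34.5 CPM against 75.5, 64.9 and 56.5 CPM (6.82% of all genes were below and 2.62% above), and the closest libraries differed by less than 1 CPM. Its log2 difference was -0.55 (SE 0.75, adjusted p = 1). On day 31 only Pecam1 was higher, at 14, 13.1 and 13.8 CPM with hNSCs against 8.57, 8.71 and 9.94 CPM with saline (3.29% of all genes were above and 2.67% below). Each group was narrow, but the fitted log2 difference of 0.58 had an SE of 1.40, in a fit that shares 1 spread with groups where the gene ran from 0 to 37.8 CPM. On the FPKM scale these groups of Pecam1 overlapped. Vwf, the member with the widest poststroke step, was 212.3, 309.5 and 134.7 CPM in hNSC libraries on day 4, which overlapped the controls. On day 31 it was 65.2, 90.5 and 40.4 CPM, which overlapped the controls (64.0, 101.8 and 51.4 CPM) with replicate 3 below all of them. Replicate numbers of the day 31 hNSC and control brain libraries deviated together (correlations of 0.254 to 0.330 for the 3 pairs), and with the number as a block 0 members were called there too.

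Plasma-derived EVs were examined to see whether the same transcripts change in the circulation. On day 4 poststroke, 3 members (Pecam1, Cdh5 and Rgs5) were above the healthy group without overlap, where 4.06% of all genes were, and 1 (Kdr) was below, where 8.4% of all genes were. On FPKM the 3 were still separated and Kdr overlapped. The edgeR quasi-likelihood test called 0 of 10 (0.0679% of 14720 genes), with 2 at an unadjusted p under 0.05 (Cldn5 and Pecam1). DESeq2 called both of these (6.16% of all genes). In plasma limma could test 9 members, all but Abcb1a, and it called 0 of them on day 4. Pecam1 was counted at 69.4, 69.8 and 86.5 CPM in healthy plasma and at 179.9, 221.6 and 101.7 CPM on day 4. All stroke libraries exceeded all healthy ones, and the log2 difference was 1.16 (SE 0.43, edgeR adjusted p = 0.742). Cdh5 was 7.49, 16.2 and 14.3 CPM in healthy plasma and a narrow 19.3, 20.6 and 21.9 CPM on day 4. Rgs5, which marks pericytes, was 6.61, 3.31 and 7.59 CPM in healthy plasma and 39.0, 24.1 and 9.46 CPM on day 4, a log2 difference of 2.05 (SE 1.85, adjusted p = 1).

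Claudin-5 was the member whose presence in plasma was most uneven. It had no read in any healthy plasma library, nor in any hNSC library of day 31, and 13 of 21 plasma libraries were at 0. On day 4 the control libraries held 6.16, 16.4 and 0 CPM, which on the mean was at least 177-fold higher than the floor of 3 counts in the healthy group. On day 10 the controls held 0, 0 and 3.37 CPM, at least 26.3-fold higher by the same floor. In the hNSC group it was 0, 25.5 and 0 CPM on day 4. On day 10 all hNSC libraries held it, with 7.20, 34 and 8.25 CPM, or 143, 516 and 118 reads, and replicate 2 alone carried the highest value in plasma. They exceeded all day 10 controls without overlap, as did 6.2% of all genes (2.38% were below), and Cldn5 was the only member to do so.

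On day 10, 2 members (Pecam1 and Rgs5) were above the healthy group without overlap (3.64% of all genes) and 0 below (8.61%), but neither on the FPKM scale. The edgeR test called 0 of 10 and 0% of all genes, with 0 members at an unadjusted p under 0.05. DESeq2 called 1 (Cldn5, with 8.25% of all genes called), and limma called 0 of the 9 it could test. By day 31 Pecam1 was on the other side of the healthy group. Its control levels of 37.1, 35 and 60.5 CPM lay below every healthy library (log2 difference -0.77, SE 0.43, adjusted p = 0.844), although on FPKM the groups overlapped. They also lay below every day 4 library (log2 difference -1.92, SE 0.44, adjusted p = 0.131). The latter passed under DESeq2 (adjusted p = 0.000101) and in edgeR without TMM scaling (log2 difference -2.14, adjusted p = 0.0415, with 0.17% of all genes called).

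Day 31 against healthy plasma gave 2 members above without overlap (Kdr and Cdh5, 4.34% of all genes) and 2 below (Pecam1 and Slc2a1, 7.84% of all genes). The edgeR test called 0 of 10 (0% of all genes), with 3 at an unadjusted p under 0.05 (Vwf, Slc2a1 and Abcb1a). DESeq2 called 3 (Cldn5 higher, Slc2a1 and Abcb1a lower, with 4.48% of all genes called), and each of the 3 had a group at or near 0 reads. Limma called 0 of the 9 members it could test, which left out Abcb1a. Kdr stood at 71.5, 84.7 and 82.3 CPM against 59.8, 44.6 and 49.8 CPM in healthy plasma, a log2 difference of 0.63 (SE 1.09, adjusted p = 1). Cdh5 was 18.9, 28.7 and 25.2 CPM, or 0.94 higher (SE 0.74, adjusted p = 1). No read of Slc2a1 was found in control or hNSC plasma on day 31, against 4.28, 3.05 and 3.82 CPM in healthy plasma. By the floor of 3 counts the control level was at least 99.9-fold lower. Abcb1a was also at 0 in the day 31 controls, by the same floor at least 57.8-fold below the healthy mean, although healthy replicate 3 was itself at 0. Both transporter genes of the barrier were therefore missing from the same control libraries. Over all plasma libraries, Slc2a1 was at 0 in 10 of 21 and Abcb1a in 9 of 21.

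**Figure D2:**
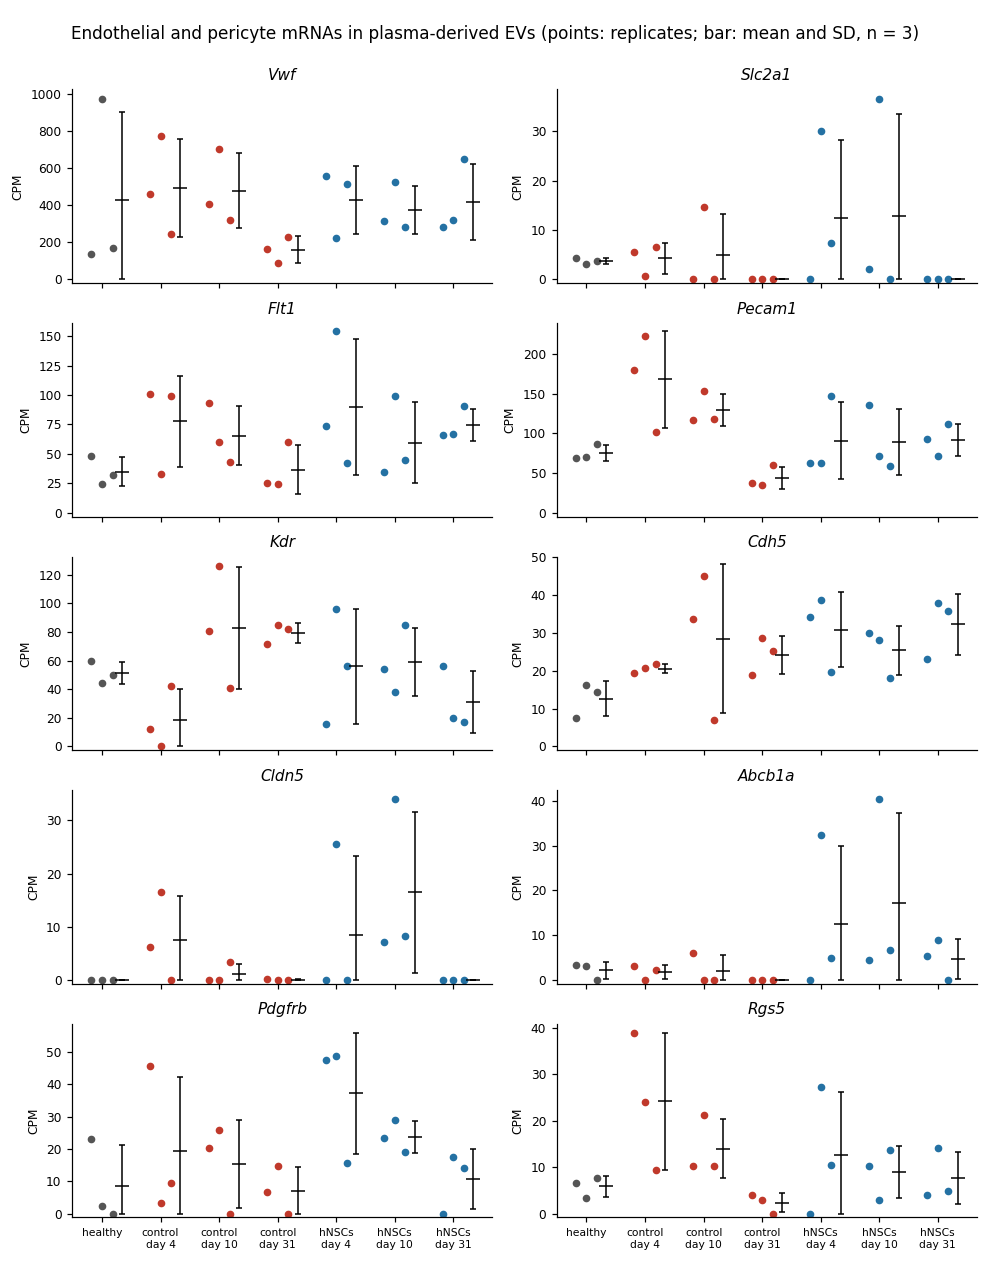
Level of each member in plasma-derived EVs in CPM (vertical axis) for the healthy, control and hNSC groups (horizontal axis). Points are the 3 replicates of a group, and the bar beside them is the mean with its SD (the lower arm stops at 0). Pecam1 is highest in the day 4 controls and lowest in the day 31 controls, and Cldn5 is at 0 in 13 of 21 libraries.

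Within the plasma controls, day 31 and day 4 did not overlap in 5 members, of which 1 was higher on day 31 (Kdr, with 4.44% of all genes) and 4 were lower (Pecam1, Vwf, Slc2a1 and Rgs5, with 4.49% of all genes). The edgeR test called 0 of 10 (0.17% of all genes), with 4 at an unadjusted p under 0.05 (Pecam1, Vwf, Slc2a1 and Abcb1a). DESeq2 called 3 (Pecam1, Slc2a1 and Abcb1a, with 6.45% of all genes called). Limma called 0 of 9 and could not test Abcb1a. Vwf was 463, 773 and 248 CPM on day 4 and 166, 87.0 and 229 CPM on day 31, a log2 difference of -1.62 (SE 0.65, edgeR adjusted p = 0.801). Kdr was 12.5, 0 and 42.5 CPM on day 4, below the day 31 values given above, without passing the test (log2 difference 2.12, SE 1.13, adjusted p = 0.801). Pooled over the 3 days against healthy plasma, 0 of 10 members were called by edgeR (0% of all genes), and 0 had an unadjusted p under 0.05. DESeq2 called 3 (Cldn5, Slc2a1 and Abcb1a, with 6.15% of all genes called), and limma called 0 of 9, Abcb1a again untested. All of these comparisons share their healthy or control libraries.

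Blood cells differed between the same plasma groups, and their part was not tested. Summed over 7 red cell genes, healthy libraries held 43469 to 79187 CPM, day 4 controls 11678 to 21458 CPM and day 31 controls 55828 to 151494 CPM, with no marker at 0 in any of these groups. Alas2, an enzyme of heme synthesis, was called as lower on day 4 than in healthy plasma (log2 difference -3.31) and as higher on day 31 than on day 4 (4.26). The sum of 8 platelet genes ran from 971 to 16951 CPM in healthy plasma, from 816 to 4531 CPM in day 4 controls and from 1214 to 1929 CPM in day 31 controls. Its highest healthy value belonged to replicate 2, the library that also held the highest healthy Vwf level, 978 CPM against 138 and 172 CPM in the others. In the controls of days 4, 10 and 31, the highest Vwf level (773, 708 and 229 CPM) instead fell in the library with the lowest platelet sum (816, 1776 and 1214 CPM).

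In plasma-derived EVs under hNSCs, the edgeR quasi-likelihood test called 0 of 10 members on day 4 (0.00679% of all genes), and 0 on day 10, day 31 and over all days (0% of all genes each). At an unadjusted p under 0.05 there were 3 members on day 31 (Pecam1, Vwf and Abcb1a), 1 over all days (Abcb1a) and 0 on days 4 and 10. DESeq2 called 0 on day 4 (5.93% of all genes), 0 on day 10 (7.76%), 2 on day 31 (Cldn5 lower and Abcb1a higher, 11.3%) and 1 over all days (Abcb1a, 9.48%). Limma called 0 of the 9 members it could test, and Abcb1a was not among these 9. The day 31 call of Cldn5 rested on 5 reads in control replicate 1, as all other control and hNSC libraries of that day were at 0. Day 31 was the time with most separation: 4 members (Pecam1, Flt1, Vwf and Rgs5) were higher with hNSCs without overlap (4.6% of all genes) and 1 (Kdr) was lower (6.57% of all genes). On FPKM, Pecam1, Vwf and Kdr were still separated, and Flt1 and Rgs5 overlapped. On day 4 no member was separated (3.34% of all genes above and 4.36% below).

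Pecam1 in day 31 plasma was 92.6, 71.8 and 112 CPM with hNSCs against 37.1, 35 and 60.5 CPM with saline. Every treated library stood above every control, and the log2 difference was 1.06 (SE 0.43, edgeR adjusted p = 0.522). Vwf was 283, 321 and 653 CPM with hNSCs, a log2 difference of 1.38 (SE 0.64, adjusted p = 0.522), and Flt1 was 66.3, 66.7 and 90.7 CPM against 25.0, 24.9 and 60.5 CPM (1.02, SE 0.58, adjusted p = 0.526). Kdr had the opposite order, with 56.2, 20.0 and 16.8 CPM under hNSCs (log2 difference -1.36, SE 1.10, adjusted p = 0.802). Abcb1a was 5.34, 8.87 and 0 CPM with hNSCs, on the mean at least 127-fold above the floor of the controls. Thus the growth factor receptors Flt1 and Kdr were separated in opposite directions in these libraries on CPM. The platelet sum in the treated group ran from 1111 to 14126 CPM, its top value in replicate 3, where Vwf was also highest. With hNSCs on day 10, by contrast, Vwf was highest (526 CPM) in the library with the lowest platelet sum (1660 CPM). The red cell sum of the day 31 treated group ran from 194655 to 306215 CPM, above all day 31 controls. The change of the hNSC effect from day 4 to day 31 was tested as an interaction and was called for 0 members by edgeR in brain and plasma, and for 3 in plasma by DESeq2 (Cldn5, Pecam1 and Abcb1a). Of these, Cldn5 and Abcb1a had a day 31 group without reads. The share of all genes called in the interaction is not given here. For hNSCs in plasma DESeq2 called 5.93% of all genes on day 4 and 11.3% on day 31.

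Healthy brain-derived and plasma-derived EVs were then set against each other, in 1 fit of all 42 libraries. Of the 10 members 3 passed, where 22% of 16945 genes were called in either direction, 11.3% as higher in the brain and 10.8% as lower. Claudin-5 was higher in the brain, with 7.59, 19.6 and 6.42 CPM on this scale (14, 92 and 25 reads) against no read in any healthy plasma library. By the floor of 3 counts this was at least 214-fold higher, with an edgeR adjusted p of 0.0177. The difference was not called when any 1 of the 3 healthy plasma libraries was left out (edgeR adjusted p of 0.0538 to 0.0735). Limma did not call it either, with log2 differences of 0.3 and 1.57 at pseudocounts of 1 and 0.1 (adjusted p = 0.573 and 0.203). Pecam1 was lower in the brain, with 0, 6.59 and 3.85 CPM against 86.4, 81.8 and 105 CPM, a log2 difference of -4.65 (SE 1.01, adjusted p = 0.000797). Vwf was lower as well, with 21.2, 65.3 and 89.6 CPM against 172, 1146 and 209 CPM (log2 difference -3.11, SE 0.89, adjusted p = 0.00995). It was no longer called without healthy plasma replicate 2, the library rich in platelet RNA (log2 difference -1.69, adjusted p = 0.167). For Kdr, 21.2, 19.1 and 16.9 CPM in the brain stood below 74.5, 52.2 and 60.6 CPM in plasma without passing (log2 difference -1.71, SE 1.75, edgeR adjusted p = 0.532). Kdr did pass as lower with only the healthy groups fitted (log2 difference -1.80, SE 0.41, edgeR adjusted p = 0.0158). Limma also called it at pseudocounts of 1 and 0.1, with 62.3% and 66.7% of all genes called. DESeq2 called Cldn5, Pecam1, Vwf and Abcb1a (35% of all genes). Abcb1a was 60.7, 27.6 and 39.8 CPM in the brain and 4.24, 3.58 and 0 CPM in plasma.

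The study's methods count 3 rats per group taken for EVs on days 4 and 10, and same-numbered brain and plasma columns carry the same running number, although no source states outright that they share a rat. With the number as a block, Pecam1 alone was called (17% of all genes called), since the adjusted p was 0.131 for Cldn5 and 0.0552 for Vwf. Over all 7 groups, 21 pairs of libraries share a group and a number. Cldn5 was higher in the brain in 17 of these 21, Slc2a1 and Abcb1a in 19 each and Pdgfrb in 18. By contrast Pecam1 and Cdh5 were higher in the brain in 0 of 21, Kdr and Vwf in 1 each and Flt1 in 6, and Rgs5 was divided, with 9 of 21. Of 12885 genes tested in both tissues, 27.1% were higher in the brain in at least 17 pairs and 13.1% in at most 1. The counts depended on the scale: on FPKM they were 14 for Cldn5 and Slc2a1, 16 for Abcb1a, 11 for Pdgfrb, 5 for Rgs5, 1 for Flt1 and 0 for Pecam1, Cdh5, Kdr and Vwf. On that scale 7.27% of the genes were higher in the brain in at least 17 pairs and 29.7% in at most 1. The mean healthy FPKM of Slc2a1 was lower in the brain (0.215) than in plasma (0.398). On CPM its healthy levels were higher in the brain, at 9.22, 26.8 and 17.5 against 5.34, 3.58 and 4.64 in plasma. The annotated share of counts was 7.11 to 20.9% in healthy brain libraries and 58.3 to 71.6% in healthy plasma libraries.

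**Figure D3:**
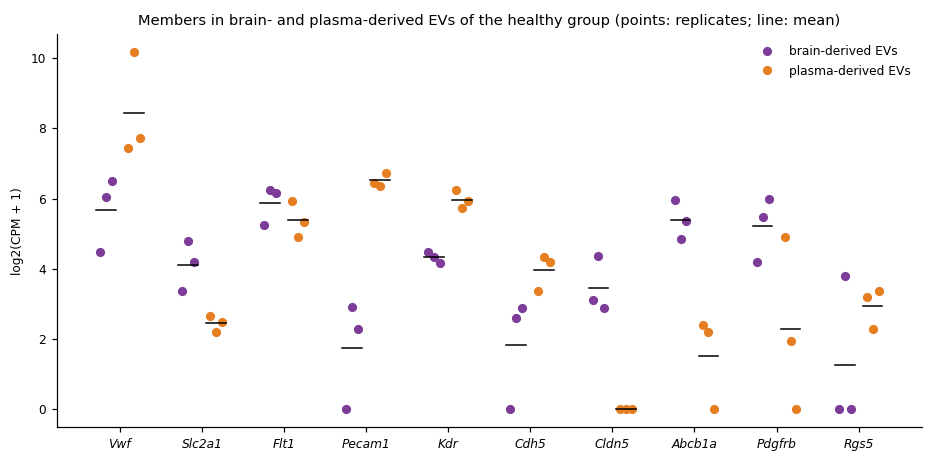
Members in brain-derived and plasma-derived EVs of the healthy group, as log2(CPM + 1) on the scale of all 42 libraries (vertical axis), by gene (horizontal axis). Points are the 3 replicates and lines their means. Pecam1 and Vwf points are higher in plasma, and Cldn5 has reads in all 3 brain libraries and in none of plasma.

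MiR-126a is the microRNA most closely tied to endothelial cells, since it lies in an intron of the endothelial gene Egfl7, and both arms of its hairpin were measured in the matching small RNA libraries. The mature sequences are shown because the values of the 2 arms differed in their course. In RefSeq (build GRCr8) they lie on the plus strand at chr3:29813219-29813240 for the 3p arm (22 bases) and at chr3:29813182-29813202 for the 5p arm (21 bases). Capitals mark the seed, bases 2 to 8, which no other mature miRNA in the RefSeq table of 693 shares with either arm.
rno-miR-126a-3p: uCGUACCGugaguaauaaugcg
rno-miR-126a-5p: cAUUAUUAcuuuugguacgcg

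Both arms were read from unique molecular identifiers, with 321776 to 1711169 of these per brain library. In the brain the 5p arm rose from healthy to day 4 and fell from day 4 to day 31, while the 3p arm was higher on day 31 than in healthy brains. The 5p arm stood at 1548, 1154 and 1642 CPM in healthy brains and at 2441, 1993 and 2330 CPM in day 4 controls. All stroke libraries were above the healthy ones, and the log2 difference of 0.64 (SE 0.19) passed in edgeR (adjusted p = 0.0293), where 14.6% of 350 miRNAs were called. This call was lost without day 4 replicate 1 or 3 or healthy replicate 1 or 2, and without a filter on low counts. By day 31 the arm was down to 1025, 997 and 927 CPM, below every day 4 library (log2 difference -1.20, SE 0.19, adjusted p = 0.000117, with 28.9% of miRNAs called). Against the healthy group this was -0.56 (SE 0.19, adjusted p = 0.0362), which is under 1.5-fold and so was not called.

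The 3p arm was the more abundant one in the brain. It was counted at 12423, 13210 and 12648 CPM in healthy brains, at 22263, 14194 and 14950 CPM on day 4 (log2 difference 0.43, SE 0.19, adjusted p = 0.118) and at 21109, 21897 and 19689 CPM on day 31. The last difference, 0.71 (SE 0.19), passed with an adjusted p of 0.00827, where 25.1% of miRNAs were called. Against healthy brains on day 31, DESeq2 called the 3p arm as higher (log2 difference 0.62) and the 5p arm as lower (-0.64). Limma called the 5p arm alone, as lower (-0.69). EdgeR without a filter on low counts also called the 5p arm alone, as lower (-0.71, adjusted p = 0.0239). On day 10 neither arm was called by edgeR (19.4% of miRNAs). The ratio of 3p to 5p molecules was 17.5 to 26.0 in the 6 brain libraries of day 31, hNSC libraries included, and 5.86 to 11.4 in the other 15. These ranges did not overlap. In plasma the ratio was 3.75 to 5.38 on day 31 and 4.11 to 7.13 in the other groups, which overlapped. No arm was called for hNSCs against saline in brain or plasma, or for stroke in plasma, where at most 0.971% of 309 miRNAs were called in any comparison.

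In long RNA the host gene was sparse. In the brain Egfl7 was 47.4, 24.6 and 36.3 CPM in healthy libraries, 49.0, 30.4 and 33.3 CPM in day 4 controls and 18.7, 17.6 and 16.4 CPM in day 31 controls. Day 31 controls lay below both other groups (6.39% of all genes lay below healthy and 10.1% below day 4), but edgeR called neither difference (log2 -1.04, SE 0.95, and -1.10, SE 0.95, adjusted p = 1 for each). With hNSCs it was 141, 49.8 and 70.2 CPM on day 4, above all day 4 controls (log2 difference 1.21, SE 0.95, adjusted p = 1), then 31.3, 0 and 0 CPM on day 10 and 21.8, 27.0 and 12.1 CPM on day 31.

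**Figure D4:**
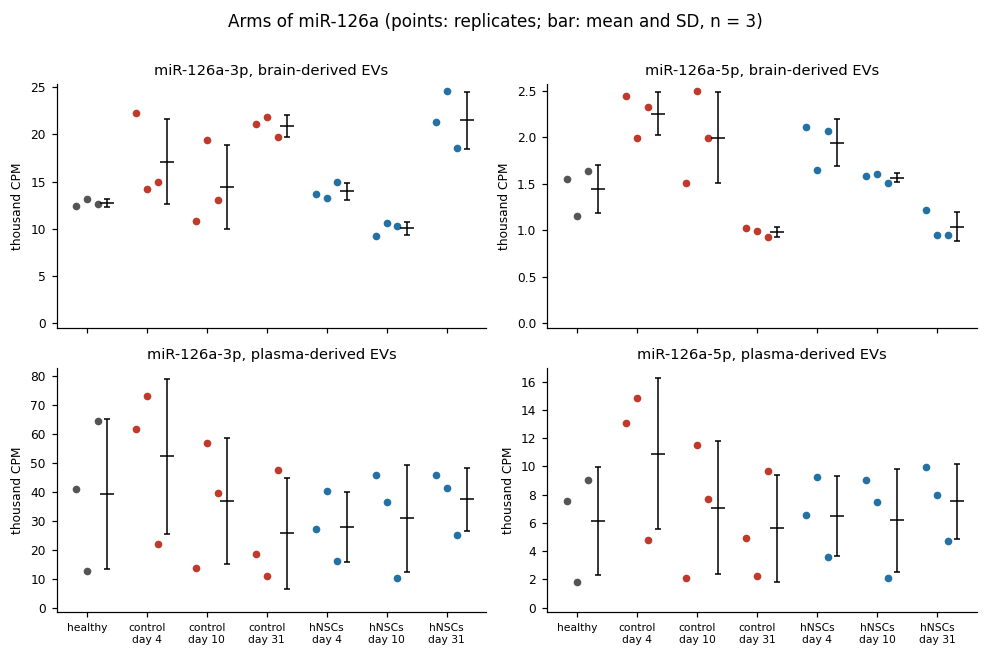
Levels of the 3p and 5p arms of miR-126a in brain-derived and plasma-derived EVs, in units of 1000 CPM (vertical axis), for the healthy, control and hNSC groups (horizontal axis). Points are the 3 replicates of a group, and the bar beside them is the mean with its SD. In the brain, 5p is lowest in both day 31 groups, where 3p is highest by mean.

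Other vascular genes placed the members in context. Among 11 genes of the vascular basement membrane, the sheet that endothelial cells and pericytes share, fibronectin (Fn1) was the 1 called on day 4 in the brain. It rose from 0, 45.4 and 43.3 CPM to 438.9, 404.7 and 139.5 CPM (log2 difference 3.42, SE 0.75, edgeR adjusted p = 0.0282). All 11 genes were higher on day 4, with a median log2 difference of 1.30, against 0.05 over all genes. From day 4 to day 31 all 11 were lower (median -1.39, against 0.11 over all genes), and collagen IV alpha 1 (Col4a1) was called. Col4a1 fell from 1009, 743 and 535 CPM to 95.4, 249 and 127 CPM (log2 difference -2.28, SE 0.46, adjusted p = 0.0294). Neither call held against the loss of single libraries: Fn1 passed only without day 4 replicate 3, and Col4a1 only without day 31 replicate 2, when libraries of the groups compared were left out in turn.

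The remaining vascular lists had no gene called in the brain on day 4. Of 17 further endothelial identity genes tested, 14 were higher, with a median log2 difference of 1.27. The 7 genes of perivascular fibroblasts were all higher (median 2.09), and 8 of 11 tested mural genes were (median 0.47). In contrast, 15 further junction and transport genes of the barrier were divided, with 7 higher and 8 lower (median -0.22), 16 angiogenic ligands and receptors had a median of 0.30, and of 8 genes of endothelial activation 5 were higher (median 1.04). In plasma 0 of 18 endothelial identity genes were called on day 4, and 16 of them were higher (median 0.87, against -0.12 over all genes). Between healthy brain and plasma, 7 of these 18 were called, all lower in the brain, with the widest differences for Emcn (endomucin), Erg (a transcription factor of endothelial cells) and Icam2 (an adhesion molecule). Of 15 barrier genes tested there, 1 was higher in the brain (Slco1c1, a thyroid hormone transporter) and 1 lower (Jam2, a junction protein). Of 12 mural genes, smooth muscle myosin (Myh11) was higher in the brain and vitronectin (Vtn) lower. Of 7 perivascular fibroblast genes 1 was higher (Lama1) and 4 were lower, among them the matrix proteoglycans Lum and Dcn. Of 19 angiogenic genes 3 were higher (Vegfa, Wnt7a and Notch1) and 1 was lower (Angpt1), and of 11 activation genes the adhesion molecule Icam1 was lower. In the basement membrane list Col4a1 and Col4a2 were higher in the brain, and Fn1 and Nid1 were lower.

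Profiles over libraries were compared as a description, by Spearman's rho over the 21 libraries of a tissue, which share depth and composition effects. In the brain, 14051 genes were ranked. Vwf was most alike to Tbc1d20 (rho = 0.926), Ushbp1 (0.896) and Nfkb2 (0.894). Pdgfrb was most alike to Fstl1 (0.879), Rac2 (0.876) and Capg (0.875), Slc2a1 to Gm2a (0.882), Cd24 (0.868) and Ehd2 (0.858), and Rgs5 to Ptpn21 (0.905), Aldh1a2 (0.832) and Ets1 (0.821). Among 14678 plasma genes the likeness was looser. Pecam1 was closest to Ehd4 (0.747), Rp2 (0.746) and Ets2 (0.740), Vwf to Jak2 (0.813), Grk5 (0.801) and Fgl2 (0.761), Rgs5 to LOC100911615 (0.802), and Flt1 to Slc9a3r2 (0.642).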

How the data were processed

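Long and small RNA of brain-derived and plasma-derived EVs was sequenced in 3 replicates of 7 groups. The deposited mRNA table holds read counts per gene, which the authors obtained by alignment to a rat genome, and FPKM values that the authors normalised to transcript length and mapped reads. The deposited miRNA table holds counts of unique molecular identifiers and TPM values, as the authors scaled them. New, unannotated genes were left out, and 0 columns remained unused. The members and gene lists were chosen with earlier results of these data known.

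Counts were fitted per tissue over all 7 groups with edgeR 4.0.16 (filterByExpr, TMM, quasi-likelihood test, Benjamini-Hochberg adjustment) in R 4.3.3. A call needed more than a 1.5-fold difference at an adjusted p below 0.05. SEs were derived from the F statistic, CPM used TMM-scaled annotated counts, and a gene without reads in a group was given a bound from a floor of 3 counts over that group. The bound covers counting error alone, not the spread between replicates. Named were all 10 members, up to 3 called genes of each other list by size of change, the 3 genes most alike (Spearman, mean of at least 10 counts) to each of the 4 members with the highest FPKM in a tissue, and both miR-126a arms. Egfl7 was named in addition, as the host gene of miR-126a. Alternatives were DESeq2 1.42.0, limma 3.58.1 on log2(FPKM + 1) and log2(FPKM + 0.1) for genes with at least 1 FPKM in at least 3 libraries, no filter, no TMM, only the groups compared, a replicate block, new genes kept, hemoglobin genes left out and each replicate left out. Leaving out the 4 shallow brain libraries was chosen after seeing the data. Same-numbered libraries deviated together little (median correlation -0.01 in the brain), so the number was no block within a tissue. Overlap between groups on FPKM was added after seeing the data. Scripts were tested on simulated data. Replicates are separate rats for EV extraction on days 4 and 10, per the study's methods. For the other groups the labels say biological replicate. Coordinates are given for miR-126a alone, from RefSeq GRCr8.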

Additional observations from a re-analysis of the deposited data

Results flagged for a closer look

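Of the 10 members, 3 had control day 31 values on opposite sides of the healthy group in the brain and in plasma, with every library of each tissue on its side. Of all genes, 18.9% lay above and 6.39% below in the brain, and 4.34% above and 7.84% below in plasma. The share of all genes on opposite sides in the tissues was not counted, so whether 3 members is many cannot be judged. The log2 difference of Pecam1 was 1.25 in the brain and -0.77 in plasma, and that of Kdr was -0.99 in the brain and 0.63 in plasma. Slc2a1 was 1.21 higher on the log2 scale in the brain and, by the floor of 3 counts, at least 99.9-fold lower in plasma. On the FPKM scale Kdr lay above healthy in both tissues and Pecam1 in plasma overlapped, so that these 2 patterns held on CPM alone. The difference between the tissues was not tested, and none of these changes passed the edgeR test in either tissue.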

How the results depend on the processing

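Of 605 recomputed counts of members or arms called (39 results), 569 were within 1.5 times the reported count and 36 were not. For the brain against healthy, the count of 0 on day 4 became 1 with DESeq2, 2 with limma at either pseudocount and 2 with only the groups compared. The count of 0 became 4 with limma at either pseudocount on day 31 and over all days. Limma shifted the median of all genes by 0.37, 1.05 and 0.49 log2 units in these 3 comparisons. From day 4 to day 31 the count of 0 became 1 with only the groups compared and 1 without the 4 shallow libraries. For plasma, DESeq2 called 2 on day 4, 1 on day 10, 3 on day 31, 3 between days 4 and 31, 3 over all days, 2 for hNSCs on day 31, 1 for hNSCs over all days and 3 in the interaction, where edgeR called 0 in each. Without TMM, 1 was called between days 4 and 31 in plasma.

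Between healthy brain and plasma the count of 3 became 5 and 6 with limma at pseudocounts of 1 and 0.1, 1 with the replicate block, and 1 to 4 when single replicates were left out. The block changed no other call of a member. All members that limma called between healthy brain and plasma were lower in the brain, and Cldn5 was not among them. Of all genes, limma called 57.5% and 59.6% as lower there at pseudocounts of 1 and 0.1. For miR-126a in the brain, the count of 1 on day 4 became 2 with limma at either pseudocount, 0 without the filter and 0 to 1 with single replicates left out. On day 10 the count of 0 became 1 with limma at either pseudocount, and 0 to 1 with replicates left out. On day 31 the count of 1 became 2 with DESeq2 and 1 to 2 with replicates left out. It stayed at 1 with limma and without the filter, but there the 5p arm was called as lower and the 3p arm was not called. The cause was not tested in any case. Of 563 recomputed fold changes (38 results), 505 kept direction and side of the threshold, 29 lost the threshold, 29 gained it and 0 reversed. Shallow brain libraries and counts near 0 limit what could be detected for Cdh5, Kdr and Pecam1 in the brain and for Cldn5, Slc2a1 and Abcb1a in plasma.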
